A study of Mus musculus with 6 samples.

Results

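The transcripts described here are 42 hepatocyte genes, chosen by symbol as a list of plasma proteins and liver enzymes, and all 42 were found among the 24940 genes of the deposited exon count table. They were measured in polyadenylated RNA of primary mouse hepatic stellate cells, which store retinoids around the liver sinusoids and do not make most of these proteins. The cells came from wild-type female C57BL/6JBomTac mice. On culture day 2 one group received the vehicle DMSO (1:1000) and the other 10 µM obeticholic acid (OCA), a bile acid analogue that activates the nuclear receptor FXR. After 3 h, both groups received 500 nM vasoactive intestinal peptide (VIP) for another 3 h. There were 3 libraries of DMSO+VIP and 3 of OCA+VIP, so VIP was common to all samples, and cells without VIP were not analysed here. Nothing in the labels ties a library to its own mouse or culture, so p-values measure only the spread between these libraries, which may be technical. The labels give neither the mice's age nor how the cells were separated from hepatocytes. The question asked of the members was whether they differed between the groups, and whether they all differed by 1 factor, as RNA from an added amount of hepatocytes would.

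Hepatocytes are the parenchymal cells of the liver and lie beside stellate cells across the space of Disse. They secrete most plasma proteins, among them albumin, the fibrinogen chains, the apolipoproteins and the alpha-1-antitrypsins, and they hold the enzymes of the urea cycle and of drug oxidation. Transcription of these genes rests on liver-enriched factors such as HNF1, HNF4 and C/EBP. FXR, the target of OCA, is also expressed in hepatocytes, where it represses bile acid synthesis.

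Promoters are printed for 4 members on which the comparisons below turn. Alb is the most abundant member per length with OCA+VIP, Serpina1b and Apoh had no counts in the vehicle group, and Ass1 was lower with OCA+VIP. Each sequence is the 250 bases before the start of transcription, read 5′ to 3′ on the gene's strand (RefSeq, GRCm38.p6). Capitals mark matches on either strand to the HNF1 half-site GTTAAT (reverse complement ATTAAC) or to the C/EBP sequence TTGCNNAA (reverse complement TTNNGCAA).
Alb, chr5:90460620-90460869, plus strand: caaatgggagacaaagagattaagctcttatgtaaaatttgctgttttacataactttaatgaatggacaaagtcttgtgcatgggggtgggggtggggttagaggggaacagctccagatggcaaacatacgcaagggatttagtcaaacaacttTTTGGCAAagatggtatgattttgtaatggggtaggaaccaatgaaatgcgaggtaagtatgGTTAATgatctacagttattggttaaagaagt
Apoh, chr11:108395047-108395296, plus strand: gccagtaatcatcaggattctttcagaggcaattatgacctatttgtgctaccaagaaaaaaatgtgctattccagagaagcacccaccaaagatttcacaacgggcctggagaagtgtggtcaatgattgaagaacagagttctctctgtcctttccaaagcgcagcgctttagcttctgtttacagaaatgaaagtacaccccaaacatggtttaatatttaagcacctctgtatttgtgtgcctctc
Serpina1b, chr12:103738190-103738439, minus strand: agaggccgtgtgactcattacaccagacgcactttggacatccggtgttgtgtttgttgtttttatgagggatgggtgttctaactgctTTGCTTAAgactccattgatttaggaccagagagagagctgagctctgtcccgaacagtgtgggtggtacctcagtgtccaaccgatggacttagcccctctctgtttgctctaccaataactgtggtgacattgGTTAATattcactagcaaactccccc
Ass1, chr2:31470020-31470269, plus strand: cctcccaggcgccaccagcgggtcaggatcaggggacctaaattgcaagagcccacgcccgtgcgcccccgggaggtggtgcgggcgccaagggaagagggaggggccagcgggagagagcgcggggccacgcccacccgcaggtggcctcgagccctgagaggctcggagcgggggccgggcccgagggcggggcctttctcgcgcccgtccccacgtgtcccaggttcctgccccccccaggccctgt

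Promoters of 32 of the 42 members were in the RefSeq table, and the window of 250 bases held the HNF1 half-site in 11 of them (34.4%) and the C/EBP sequence in 14 (43.8%). Among all 32851 promoter windows of the same length, 6.43% held the half-site and 9.56% the C/EBP sequence. The half-site matches include those of Serpina1a to Serpina1e, which are paralogs, so the matches are not independent. An HNF4 sequence (CAAAGTNCA) was found in 1 of the 32 windows (3.1%, against 1.19% of all windows). The full HNF1 palindrome and an FXR inverted repeat were found in 0 of the 32, and in 0.009% and 0.006% of all windows. In Alb the half-site lay 27 to 32 bases and the C/EBP match 87 to 94 bases before the start. In Serpina1b the matches lay 21 to 26 and 154 to 161 bases before it. The windows of Apoh and Ass1 held neither string. These matches describe letters in a window and do not show that a factor binds there.

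Column totals of the DMSO+VIP libraries ran from 2839106 to 4574160.5 counts, and those of the OCA+VIP libraries from 4534359.5 to 9947968, so depth differed between the groups. Low counts were stepped: 65.4% to 87.5% of counts above 0 and up to 30 lay within 0.5 of a multiple of 3. Counts come in units of 0.5, so part of this share would arise without steps. A step of 6 was used below because many low member counts were 6 or 12, but the share at multiples of 6 was not measured. A count of 0 was therefore taken to allow up to 3 steps, or 18 counts, summed over a group. Scaled to the column totals (CPM), this floor is 1.61 CPM over DMSO+VIP and 0.887 CPM over OCA+VIP, for counting error only. The stellate cell label was checked against 16 markers: all 16 were detected, with a summed level of 909 to 1203 CPM in DMSO+VIP and 1046 to 1164 CPM in OCA+VIP. Of these, 4 were higher, 3 lower and 9 not called (edgeR, below), so the similar sums hold changes in both directions. The shares over all genes tested were 5.72% higher and 6.04% lower.

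Hepatocyte transcripts were detected in every library, in both groups. With OCA+VIP, 13 of the 42 members were higher, 1 was lower, 15 were not called and 13 had too few counts to be tested. Calls are from the quasi-likelihood test of edgeR, at a threshold of 0.05 on p adjusted by Benjamini-Hochberg over 11286 genes. Among all genes tested, 5.72% were called higher and 6.04% lower. In 30 of the 42 members every OCA+VIP library lay above every DMSO+VIP library in CPM, an order found in 13.5% of all genes with any count, and in 1 member the order was the opposite, as in 10.6% of all genes. In bulk RNA, more cells of a type and more RNA per cell cannot be told apart.

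**Figure D1:**
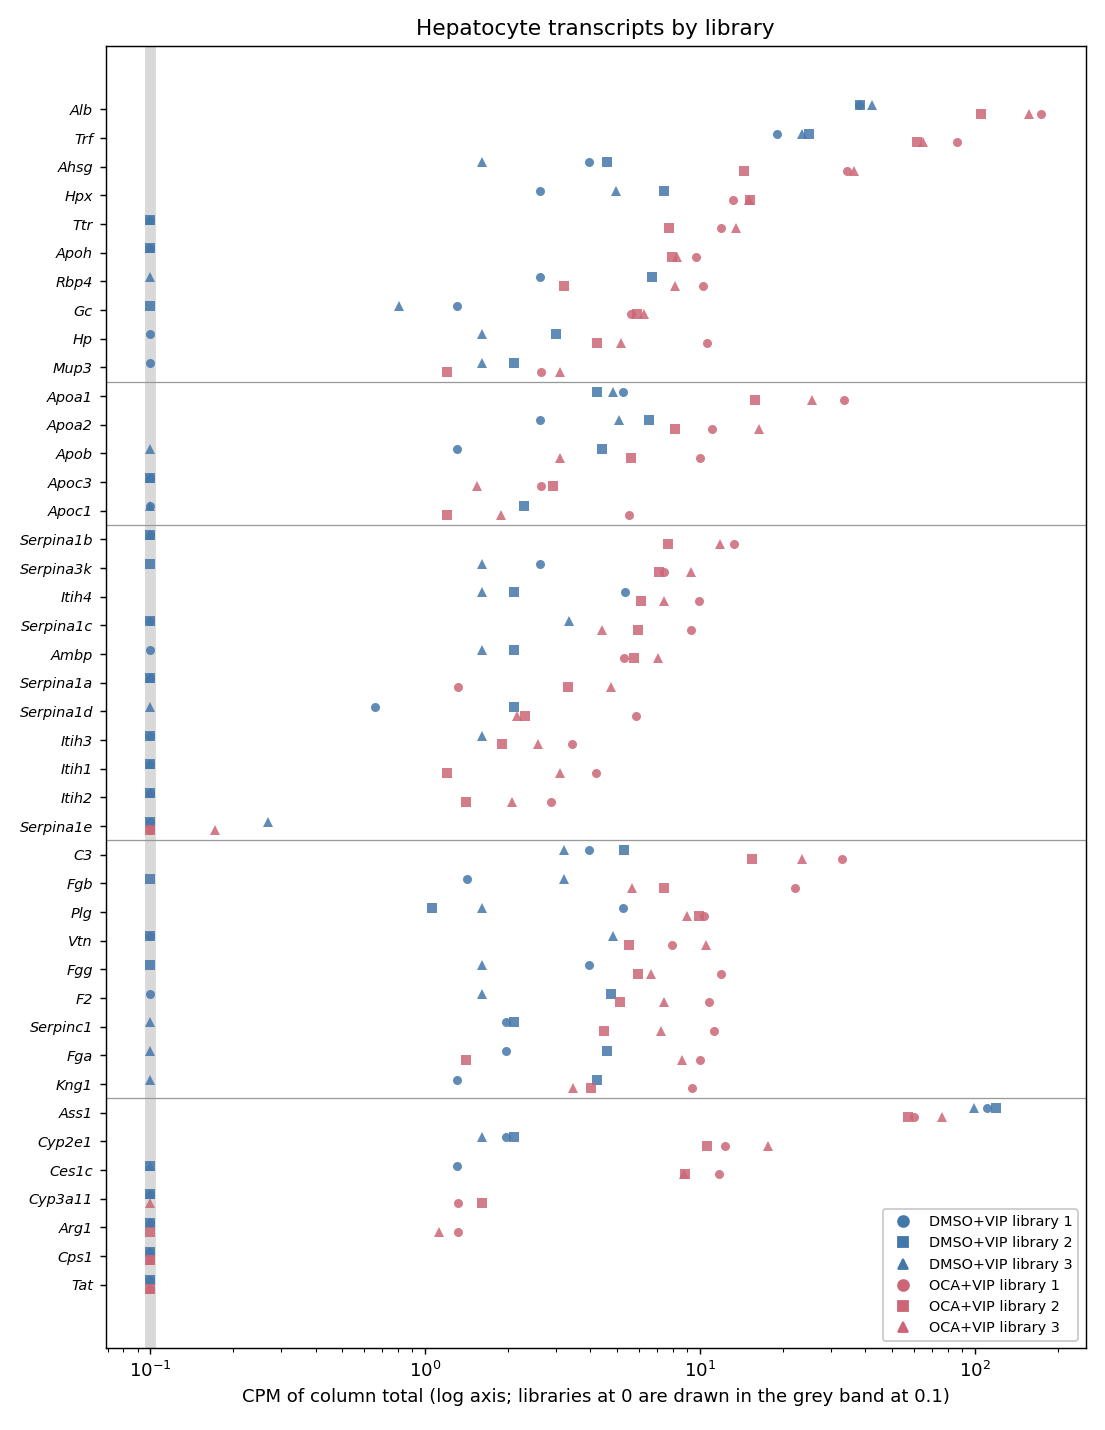
CPM (counts scaled to the column total, log axis) of each of the 42 members in the 3 DMSO+VIP (blue) and 3 OCA+VIP (red) libraries, grouped by role from carriers at the top to enzymes at the bottom; libraries at 0 are drawn in the grey band. In 30 members the 3 red points lie to the right of all 3 blue points, and Ass1 shows the opposite order.

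A core of 22 members was used to measure the common shift. It holds the members known mainly as hepatocyte products, from Alb and Ttr to the fibrinogen chains and plasminogen. Left out were C3, Trf, the enzymes and other genes, for known expression in other cells or for low abundance. The choice rests on general knowledge but was made with earlier results of these data known, so it may not be independent of the counts. It keeps Serpina1e, with 1 count in each group, and leaves out Vtn, Serpinc1 and Hp. The 3 vehicle libraries held 70.9, 79.8 and 74.3 CPM of core transcripts, and the 3 OCA+VIP libraries 413, 249.7 and 361 CPM. The vehicle libraries lay close together and all below the OCA+VIP libraries, of which library 2, the deepest, had the lowest sum. The means were 75.0 ± 4.46 and 341 ± 83.6 CPM (SD, n = 3), a ratio of 4.55, with ratios of 3.13 to 5.83 over the 9 pairs of libraries. The first libraries of both groups had nearly the same column total, 4574160.5 and 4534359.5, and held 324.5 and 1874 core counts. This pair gave the highest of the 9 ratios, 5.83, and the part of depth in the result was not tested. OCA+VIP library 1, with the highest sum, also had the highest share of the ribosomal RNA gene Rn45s (0.546% of counts against 0.194% to 0.287% in the others); the part of this in the result was not tested, and without that library the core ratio was 4.07.

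**Figure D2:**
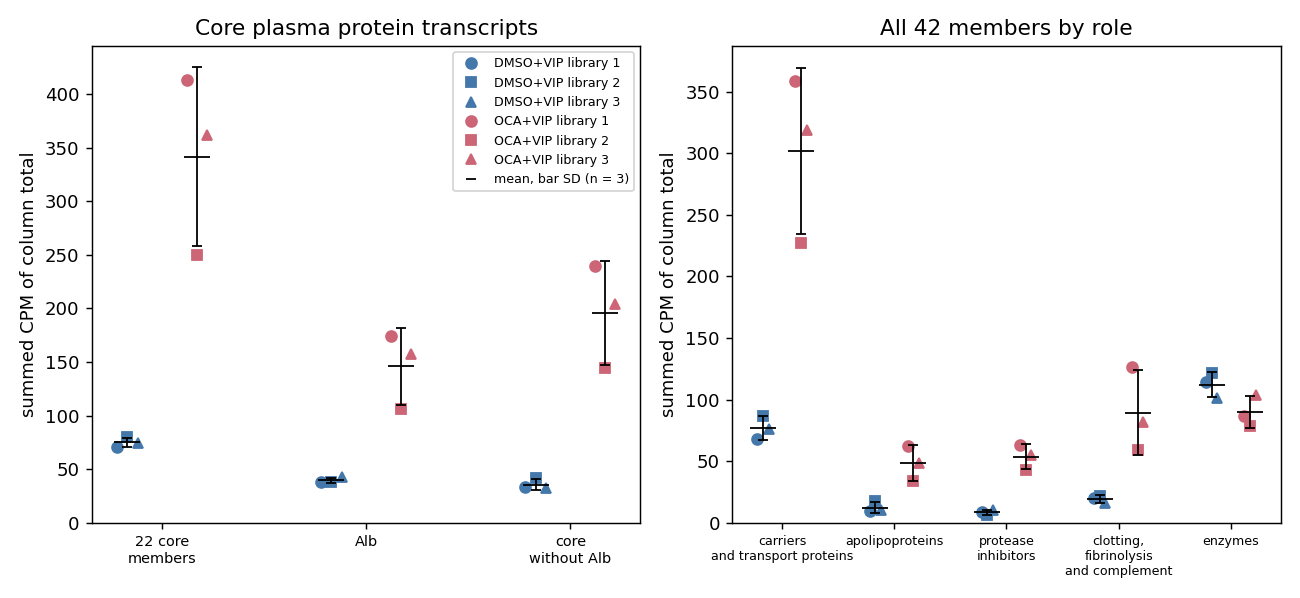
Summed CPM of the column total (linear axes from 0) in each library for the 22 core members, for Alb and for the core without Alb (left), and for all 42 members by role (right); points are libraries, the black line and bar are the mean and SD of 3 libraries. The core sum lies at 70.9 to 79.8 CPM in DMSO+VIP and at 249.7 to 413 CPM in OCA+VIP, while the enzymes, dominated by Ass1, lie at 100.9 to 121 and 78.4 to 103.8 CPM.

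The sum over all 42 members was 229 ± 22.05 CPM in the vehicle group against 582 ± 130.02 CPM in the OCA+VIP group (SD, n = 3), a ratio of 2.54. This lower ratio came from Ass1, which alone made up 109.6 ± 9.94 CPM of the vehicle sum: without it the ratio was 4.35. The tested members had a median log2 fold change of 2.27, beside 0.00 over all genes tested, and of 2.13 without the 3 that were at 0 in the vehicle group. Only 7 of the 29 tested members reached the minimum level of the filter, 2.20 CPM, in all 3 vehicle libraries. Of these 7, Alb, Apoa1, Trf, Hpx and C3 were called higher, Ass1 lower, and Apoa2 was not called. The other 22, with 8 of the 13 higher calls, passed the filter only with the help of OCA+VIP libraries, so their counts and the medians describe the list and support nothing.

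Among the carriers of plasma, 7 of 10 members rose (5.72% of all genes tested did), 0 fell and 3 were not called or not tested. Of the 7, Ahsg, Gc, Ttr and Apoh passed the filter only with the help of OCA+VIP libraries. Alb encodes serum albumin (chromosome 5, 90460870 to 90476602, mm10). It stood at 38.0, 38.2 and 42.2 CPM in the vehicle libraries and at 174, 106 and 158 CPM in the OCA+VIP libraries. Its groups were well separated and its vehicle libraries nearly equal (log2 fold change 1.88, SE 0.19, edgeR adjusted p = 9.2e-07). Trf, encoding the iron carrier transferrin, had 19.1, 25.0 and 23.4 CPM in the vehicle libraries and 86.1, 61.5 and 64.9 CPM in the OCA+VIP libraries, without overlap (log2 fold change 1.64, SE 0.21, edgeR adjusted p = 1.7e-05). A readthrough gene, Gm20425, covers 89.5% of the exon bases of Trf on the same strand, so reads of both cannot be separated. Ahsg, encoding fetuin-A, an inhibitor of calcification, had 3.94, 4.58 and 1.61 CPM and then 34.4, 14.4 and 36.4 CPM, also without overlap (log2 fold change 3.08, SE 0.45, edgeR adjusted p = 7.7e-05). Its OCA+VIP library 2 was the lowest of the 3, as for the core sum.

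Hpx, encoding the heme carrier hemopexin, had 2.62, 7.40 and 4.96 CPM and then 13.2, 15.2 and 15.1 CPM. Its groups did not overlap and its OCA+VIP libraries were nearly equal (log2 fold change 1.56, SE 0.47, edgeR adjusted p = 0.031), but the call was lost without any 1 of 5 libraries, all but DMSO+VIP library 2 (edgeR adjusted p from 0.070 to 0.12). Gc, the vitamin D-binding protein, went from 0.705 ± 0.661 to 5.93 ± 0.335 CPM (edgeR adjusted p = 0.045), and its call was lost without any 1 of the 6 libraries (edgeR adjusted p from 0.061 to 0.16).

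Ttr encodes transthyretin, a carrier of thyroid hormone and of the retinol-binding protein. It had no counts in the vehicle libraries and 54, 77 and 78.5 counts in the OCA+VIP libraries. Apoh, the phospholipid-binding beta-2-glycoprotein, likewise had 0 counts in each vehicle library and 44, 79 and 48 counts with OCA. Both were tested only because of their OCA+VIP counts, so their calls (edgeR adjusted p = 1.0e-04 for Ttr and 3.5e-04 for Apoh) follow in part from the filter. With the counting error of both groups, in steps of 6 counts, the lower ends of the 95% intervals of their ratios were 4.94 for Ttr and 3.90 for Apoh. The retinol carrier gene Rbp4 had overlapping groups, with 2.62, 6.69 and 0 CPM in the vehicle libraries and 10.3, 3.22 and 8.10 CPM in the OCA+VIP libraries (edgeR adjusted p = 0.40). Hp, haptoglobin, had 14.5 and 120 counts over the groups and was not called (edgeR adjusted p = 0.14), and the major urinary protein gene Mup3, with 12 and 42 counts, was not tested.

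Of the 5 apolipoproteins, 1 rose (5.72% of all genes tested did) and 4 were not called or not tested. Apoa1, the main protein of high-density lipoprotein, had 5.25, 4.23 and 4.82 CPM with DMSO+VIP and 33.4, 15.9 and 25.7 CPM with OCA+VIP. The 2 groups stood far apart, again with OCA+VIP library 2 lowest (log2 fold change 2.37, SE 0.39, edgeR adjusted p = 2.7e-04). Apoa2, its partner in the same particles, had 2.62, 6.52 and 5.09 CPM and then 11.03, 8.14 and 16.5 CPM, with no overlap but no call (edgeR adjusted p = 0.10). Apob, which carries very low-density lipoprotein, overlapped between groups and was not called (edgeR adjusted p = 0.24). Apoc3, an inhibitor of lipoprotein lipase, had 0 counts with DMSO+VIP and 50 counts with OCA+VIP, and the lower end of the interval of its ratio, 0.938, did not exclude equal levels. Apoc1 had 6.5 and 48 counts; neither was tested.

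Among 11 protease inhibitors, 1 rose (5.72% of all genes tested did), 4 were not called and 6 were not tested. In 10 of the 11 the OCA+VIP libraries all lay above the vehicle libraries, an order found in 13.5% of all genes with any count. However, 4 of these had no counts in the shallower vehicle libraries. Serpina1d was separated only by 2.15 CPM (OCA+VIP library 3) against 2.11 CPM (DMSO+VIP library 2), so this order describes the list and supports nothing. Serpina1b encodes 1 of the mouse alpha-1-antitrypsins, which inhibit neutrophil elastase. It had no counts in the vehicle libraries and 60.5, 76 and 68.5 counts with OCA (edgeR adjusted p = 1.1e-04), and it too was tested only because of the latter. The lower end of the counting interval of its ratio was 4.79. Its paralogs had fewer counts. Serpina1a had 0 counts with DMSO+VIP and 66.5 with OCA+VIP, Serpina1c 12.5 and 126.5, Serpina1d 9 and 62, and Serpina1e 1 and 1. The paralogs share sequence: 67.4% of the 50-base words of the Serpina1a transcript, 47.1% of those of Serpina1b, 74.2% of Serpina1c, 50.9% of Serpina1d and 37.9% of Serpina1e also occur in transcripts of other genes. The split of reads among these 5 genes is therefore uncertain. Serpina1c also shares 31.5% of its exon bases with B430119L08Rik on the opposite strand.

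Serpina3k, a kallikrein-binding inhibitor, had 18 and 158 counts over the groups (edgeR adjusted p = 0.058), and Ambp, the precursor of alpha-1-microglobulin and bikunin, 12 and 122.5 (edgeR adjusted p = 0.12). The heavy chains that join bikunin to hyaluronan were also low. Itih1 and Itih2 had 0 counts with DMSO+VIP and 49 and 39 with OCA+VIP, Itih3 6 and 49.5, and Itih4 36.5 and 149 (edgeR adjusted p of Itih4 = 0.21).

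Of the 9 genes of clotting, fibrinolysis and complement, 2 rose (5.72% of all genes tested did) and 7 were not called. Of the 2, Fgb passed the filter only with the help of OCA+VIP libraries. C3 encodes the central complement component and had 3.94, 5.28 and 3.21 CPM with DMSO+VIP and 32.7, 15.4 and 23.4 CPM with OCA+VIP. Its groups were separated by more than their spread (log2 fold change 2.53, SE 0.41, edgeR adjusted p = 2.6e-04). Fgb, the fibrinogen beta chain, had 1.42, 0 and 3.21 CPM and then 22.3, 7.39 and 5.68 CPM. OCA+VIP library 1 stood far above the others, and the call (log2 fold change 2.89, SE 0.79, edgeR adjusted p = 0.019) was lost without it (adjusted p = 0.28) and without DMSO+VIP library 1 (adjusted p = 0.079). Fga and Fgg, the other chains of the same protein, had 22 and 109.5 and 24 and 151.5 counts over the groups and were not called (edgeR adjusted p = 0.29 and 0.11).

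Prothrombin (F2), plasminogen (Plg), antithrombin (Serpinc1), vitronectin (Vtn) and kininogen (Kng1) had 15 to 33 counts over the vehicle group and 102.5 to 197.5 over the OCA+VIP group. Of these, Plg and Serpinc1 had the smallest edgeR adjusted p, 0.072 and 0.071. Slc22a3 lies on the opposite strand over 15.2% of the exon bases of Plg, and whether reads were counted by strand is not given in the sources used here. Kng1 shares 18.2% of its 50-base words with other transcripts, all of them with Kng2.

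The 7 enzymes moved both ways: 2 rose, 1 fell and 4 were not tested. Of all genes tested, 5.72% rose and 6.04% fell. The 2 that rose passed the filter only with the help of OCA+VIP libraries. Cyp2e1, a cytochrome P450 that oxidises ethanol, had 1.97, 2.11 and 1.61 CPM with DMSO+VIP and 12.4, 10.7 and 17.7 CPM with OCA+VIP, without overlap (log2 fold change 2.82, SE 0.55, edgeR adjusted p = 0.0016), but limma-voom did not call it (adjusted p = 0.052). Ces1c, a secreted carboxylesterase, had 6, 0 and 0 counts and then 53, 88 and 51 counts (edgeR adjusted p = 0.0035). Its ratio of 17.6 rests on a single step of 6 counts in the vehicle group, and its 95% counting interval ran from 2.94 to 716.

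Ass1, argininosuccinate synthetase, is a urea cycle enzyme in hepatocytes and makes arginine in many other cells (chromosome 2, 31470270 to 31520670, mm10). It had 111, 119 and 99.2 CPM with DMSO+VIP and 59.9, 57.2 and 76.1 CPM with OCA+VIP, all lower than any vehicle library (log2 fold change -0.78, SE 0.16, edgeR adjusted p = 0.0018). Transcripts of another gene, Gm5424, share 55.3% of its 50-base words. The other urea cycle and amino acid enzymes were at or near 0. Cps1, which starts the urea cycle and is abundant in hepatocytes, and Tat, tyrosine aminotransferase, had 0 counts in all 6 libraries. Arg1, arginase, had 0 and 12.5 counts and Cyp3a11, a drug-oxidising P450, 0 and 22. At this depth a count of 0 allows up to 0.887 CPM with OCA+VIP.

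Per length of exon, the order of the members also differed between the groups. With DMSO+VIP, Ass1 was first at 68.0 ± 6.16 CPM per kb, ahead of Alb at 19.3 ± 1.15 and Trf at 9.74 ± 1.32 CPM per kb (SD, n = 3). With OCA+VIP, Alb was first at 71.4 ± 17.5 CPM per kb, followed by Ass1 at 39.9 ± 6.34, Trf at 30.6 ± 5.77, Apoa1 at 25.4 ± 8.95 and Ahsg at 19.2 ± 8.20 CPM per kb. Neighbours in this order from Ass1 to Ahsg overlapped: Trf, for example, had 37.2 CPM per kb in OCA+VIP library 1, where Ass1 had 37.1.

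To ask whether the members shared 1 factor, the edgeR fit was repeated with the core factor (4.54 on normalised library sizes) as the null value in place of no change. The factor was taken as known and is built from core members, so members lie around it in part by construction. Of the 29 tested members, 6 differed from it, 4 above and 2 below, while 94.5% of all genes tested differed from it. The 2 below were Ass1 (edgeR adjusted p = 3.2e-13) and Trf (edgeR adjusted p = 0.020). The 4 above were Ttr, Serpina1b and Apoh, all at 0 in the vehicle group, with edgeR adjusted p of 1.7e-04, 1.9e-04 and 6.2e-04, and Ces1c with 0.038. All 4 passed the filter through OCA+VIP, only 3.53 to 4.51 steps of 6 counts were expected for them in the vehicle group, and the counting intervals of Apoh and Ces1c held the factor. For the other 23, a difference from the factor was not detected, and their intervals were wide: that of the log2 fold change of Apoa2, for example, ran from 0.25 to 2.45, beside 2.18 for the factor.

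These calls were not equally firm. Ass1 differed from the factor in each fit that left out 1 library. So did Ttr, Serpina1b and Apoh, but their vehicle counts stay at 0 whichever library is left out, so this does not show that the calls are stable. That of Ces1c was lost without any 1 of 5 libraries, all but DMSO+VIP library 1 (edgeR adjusted p from 0.068 to 0.11). Trf was lost without DMSO+VIP library 3 (edgeR adjusted p = 0.055) or OCA+VIP library 3 (0.0998), and with each library's own core sum as its scale (0.21), and against the factor of Alb alone (0.28). Ahsg, not different in the first fit (edgeR adjusted p = 0.060), lay above the factor of Alb alone (0.015), and above the core factor with no filter (0.036) or with the second vehicle library (0.046) or the second OCA+VIP library (0.024) left out. With counts divided by 6, so that 1 step counts as 1, Ttr, Serpina1b and Apoh did not reach the minimum count. Without that minimum they differed from the factor at edgeR adjusted p = 0.011, 0.013 and 0.028, and Ces1c did not (0.15).

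**Figure D3:**
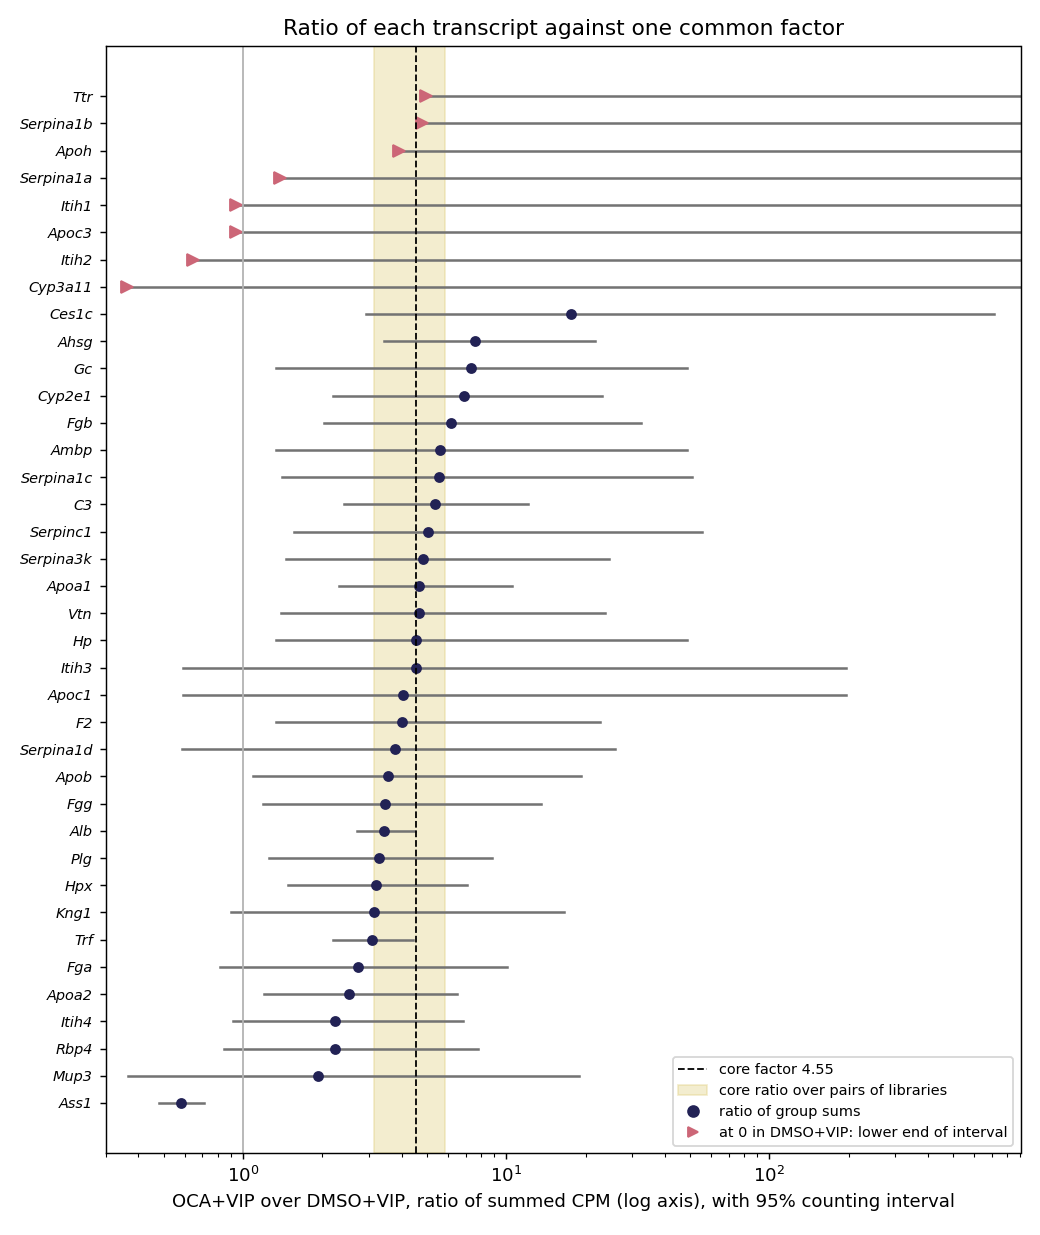
Ratio of OCA+VIP to DMSO+VIP (log axis) for the 38 members with more than the floor in at least 1 group, from pooled CPM, with 95% counting intervals in steps of 6 counts; triangles are members at 0 in DMSO+VIP, drawn at the lower end of the interval. The dashed line is the core factor of 4.55 and the band its range of 3.13 to 5.83 over pairs of libraries; Ass1 lies below 1 and most intervals cross the line.

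Counting error alone was wide for most members. In counts divided by 6, an exact 95% interval of the ratio (from Clopper-Pearson limits, counting error only) could be formed for 39 members and held 4.55 in 34 of them. It lay below 4.55 for Alb (2.70 to 4.50), Trf (2.20 to 4.41) and Ass1 (0.478 to 0.709). For Ttr and Serpina1b its lower ends were 4.94 and 4.79, above the factor, and for Apoh it was 3.90. These intervals leave out the spread between libraries.

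Alb gave a smaller factor than the rest of the core. It rose 3.70-fold in CPM, while the other 21 core members together went from 35.5 ± 5.23 to 196 ± 48.1 CPM (SD, n = 3), a ratio of 5.50, with 3.46 to 7.44 over the 9 pairs of libraries. Alb made up 53.6%, 47.9% and 56.8% of core counts in the vehicle libraries and 42.1%, 42.4% and 43.7% in the OCA+VIP libraries, with no overlap. Against the factor of the core without Alb, taken as known, Alb lay below it (edgeR adjusted p = 0.0056, where 95.9% of all genes differed), but with each library's sum of the other core members as its scale it did not (edgeR adjusted p = 0.11).

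**Figure D4:**
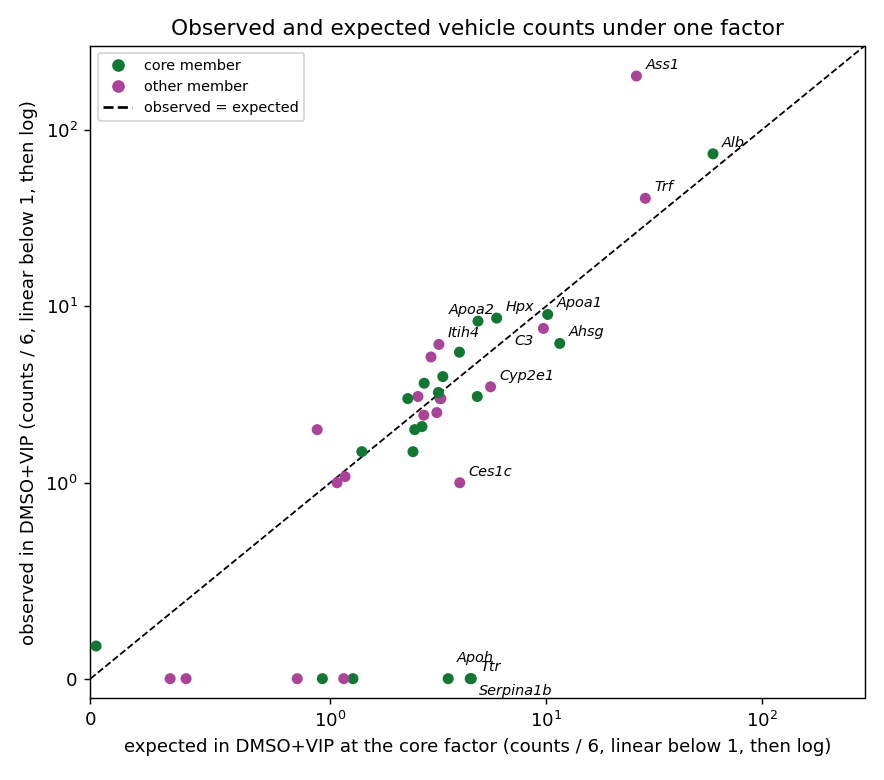
Observed counts over the DMSO+VIP group (vertical) against those expected if each member were lower than in OCA+VIP by the core factor (horizontal), both divided by 6, with axes linear below 1 and logarithmic above; green points are core members, purple points other members. Ass1 lies far above the line of equality, Alb and Trf slightly above it, and Ttr, Serpina1b and Apoh lie at 0 where 3.53 to 4.51 steps were expected.

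With 1 factor, the OCA+VIP levels would give the vehicle group 157.7 counts of Ass1, where 1214.5 were observed, 173.5 of Trf (246 observed) and 357.3 of Alb (440 observed). They would give 27.1, 26.8 and 21.2 counts of Ttr, Serpina1b and Apoh, or 4.51, 4.46 and 3.53 steps, where 0 were observed. For Apoa1, 61.2 counts were expected and 54 observed, for C3 58.4 and 45, and for F2 19.1 and 19.5. Fewer counts than expected were observed for Ahsg (69.6 expected, 37 observed) and Ces1c (23.9 and 6), and more for Apoa2 (29.1 and 49.5), Itih4 (19.2 and 36.5) and Rbp4 (17.6 and 31).

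Most other hepatocyte genes were too scarce to test. Of 64 further genes made in hepatocytes, 54 had any count, 25 of them only with OCA+VIP, and 10 were tested. Of these 10, 1 rose (5.72% of all genes tested did) and 9 were not called. The sum of the 64 had a ratio of 1.54 between the groups, and 2 genes, Apoe and Gstp1, made up most of it. The other 62 summed to 87.9 ± 6.07 and 161 ± 25.4 CPM (SD, n = 3), a ratio of 1.83, with 1.44 to 2.27 over pairs of libraries. Apoe, an apolipoprotein that macrophages and stellate cells also make, had 86.8 ± 11.8 CPM in the vehicle group and rose to 215 ± 55.5 CPM with OCA (edgeR adjusted p = 3.1e-05, log2 fold change 1.30, SE 0.18) and differed from the core factor (edgeR adjusted p = 6.1e-05). Gstp1, a glutathione transferase, had 143 ± 8.92 and 114 ± 12.1 CPM. Serping1, the C1 inhibitor, had 17.002 ± 6.86 and 28.8 ± 3.21 CPM. Neither was called (edgeR adjusted p = 0.11 for each). In all, 10 of the 64 had 0 counts in every library.

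Markers of other liver cells were low in both groups, and their part in the result was not tested. The 8 markers of sinusoidal endothelium summed to 2.68 to 4.23 CPM with DMSO+VIP and 7.39 to 13.2 CPM with OCA+VIP, and 0 of 2 tested were called. Of 10 markers of Kupffer cells and macrophages, 5 were at 0 throughout, and their sum was 0 to 17.1 CPM and 1.46 to 6.58 CPM. Cholangiocyte markers, led by Krt19, summed to 6.16 to 14.9 CPM and 17.3 to 21.01 CPM, with 0 of 2 tested members called. Of 4 measured B cell markers, Cd79a had no counts in the vehicle group and 6.03 ± 2.34 CPM with OCA+VIP and was called higher, while Ms4a1 was at 0. T cell and neutrophil lists had 1 detected member each. In the stellate cell list, the matrix genes Ecm1 and Dcn rose, from 135 ± 15.5 to 249 ± 39.4 CPM and from 111 ± 11.1 to 220.5 ± 38.5 CPM, while Des, encoding desmin, fell from 145 ± 11.6 to 103 ± 14.97 CPM. Reln, encoding reelin, had 269.7 ± 99.6 and 241 ± 58.8 CPM and was not called. Larger called changes in this list, named after their values were seen, were those of Hgf, Col1a1, Colec11 and Ngfr. Hgf, a hepatocyte growth factor, fell from 47.7 ± 8.34 to 11.1 ± 2.50 CPM, and the collagen gene Col1a1 from 59.4 ± 16.9 to 17.4 ± 3.56 CPM. The lectin gene Colec11 rose from 6.97 ± 1.22 to 31.5 ± 8.66 CPM, and Ngfr from 13.04 ± 5.70 to 29.6 ± 5.47 CPM. Colec11 did not differ from the core factor (edgeR adjusted p = 0.97), while Ecm1, Dcn and Ngfr lay below it.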

How the data were processed

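Polyadenylated RNA of 6 samples was sequenced. Per the labels' protocols, libraries were made with the NEBNext Ultra RNA kit. Per the submitters' processing notes, STAR, HOMER, DESeq2 and the build mm10 were used; what each did is not given in the sources used here. The authors deposited expected counts of exon reads per gene in steps of 0.5, not adjusted for library size, with 1 RefSeq transcript per gene, and other columns per the file headers give exon length in bases and genomic copies. Strand setting and duplicate removal are not given in the sources used here. Columns were assigned to groups by name, and libraries are numbered as the columns are.

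Counts were rounded and tested with edgeR 4.0.16 (R 4.3.3): filterByExpr by group (minimum count 10, total 15), TMM, quasi-likelihood F test, two-sided, Benjamini-Hochberg adjustment over all 11286 genes, threshold 0.05. There were 4 residual degrees of freedom. Standard errors are the log2 fold change divided by the root of F. The test against the core factor added its logarithm to the offsets of OCA+VIP. CPM are scaled to column totals, and errors are SD. Names were chosen by rule: every member, and the 4 genes of highest CPM in each other list, some of which are not reported here. Members and lists were chosen with earlier results of these data known. The edgeR fits were also run on simulated counts with planted changes, whose results are not reported here. The steps of 6 counts were not simulated. Exon overlap and shared 50-base words come from GENCODE M21. All 42 members matched a GENCODE transcript by RefSeq accession. The B cell markers Ighm and Igkc were not found by symbol. Alternatives were RLE and library-size scaling, other filters, DESeq2 1.42.0, limma-voom (limma 3.58.1), a replicate block, other thresholds, other factors, counts divided by 6 and leaving out each library.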

Additional observations from a re-analysis of the deposited data

How the results depend on the processing

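Without a filter on low counts, 21 members were called higher (5.22% of all genes tested), and with counts divided by 6, where 7 members were left to test, 6 were (7.60%). With the filter removed as well, an alternative chosen after the data were seen, 15 were (5.28%), among them all 13 of the first fit. The members that differed from the core factor numbered 2 with counts divided by 6 (99.7% of all genes), and 10 when the factor came from all members (2.54), a set that includes Ass1 (86.1% of all genes). Leaving out each library in turn gave 11 to 14 members higher (2.67% to 6.44% of all genes tested) and 1 lower (3.41% to 6.34%). In these fits 4 to 7 members differed from the factor (88.9% to 92.6% of all genes). The core ratio was 4.07 to 5.16 and the ratio of all members 2.29 to 2.85. In a fit with the column number as a replicate block, 12 members were higher (4.86% of all genes, Gc was not called). In that fit 1 member was lower (5.04% of all genes) and 6 differed from the factor (91.7%). Deviations of libraries with the same number had correlations across genes near 0 (-0.04, -0.05 and 0.03), as had those of different numbers (-0.03 to 0.08). With counts this low, such values can neither show nor exclude a shared mouse or culture, so pairing by number stays unknown. DESeq2 called 17 members higher (6.24%) and limma-voom 10 (5.74%). DESeq2 and limma-voom were not run for the core factor. Ass1 was the 1 member called lower in each of these fits. For single members, 379 of 413 fits kept direction and side of the threshold, 18 lost a call, 16 gained one and 0 reversed. Fits that did not test a member are not among the 413. With counts divided by 6, Ttr, Serpina1b, Apoh, Fgb, Gc, Cyp2e1 and Ces1c were not tested, so the loss of their calls is not counted. Depth limits the rest: 25 of the 42 members had no more than 18 counts, or 3 steps, over the vehicle group.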
